A study of Homo sapiens with 12 samples.

Results

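The lenvatinib response that Huh7 and PLC/PRF/5 cells have in common was read from all 12 libraries of the series (12 of 12 samples), 3 for each of 4 groups. Huh7 and PLC/PRF/5 are established human hepatocellular carcinoma lines, both listed with the genotype WT, and the groups were Huh7 with DMSO, Huh7 with lenvatinib, PLC/PRF/5 with DMSO and PLC/PRF/5 with lenvatinib. DMSO is the solvent control, no other agent is named, and the labels state neither the dose of lenvatinib nor its duration. For each gene the change from DMSO to lenvatinib was taken in each line and the 2 changes were averaged with equal weight. A gene was counted as shared when the change passed the test in each line by itself with the same sign, which held for 1125 of the 15587 genes tested. Each line is a model of 1 tumour, and PLC/PRF/5 carries integrated hepatitis B virus DNA while Huh7 does not. Nothing in the labels ties the replicates to independent cultures, and the spread behind each p-value may therefore be technical.

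Lenvatinib is an oral drug for advanced liver cancer that blocks receptor kinases, those for VEGF and FGF as well as PDGFRA, KIT and RET. Receptor kinases of this kind feed the RAS and ERK cascade, whose output includes feedback phosphatases, immediate early genes and cyclin D, and they feed PI3K and mTOR signalling, which sets protein synthesis and secretion. Cells that run short of amino acids or meet oxidants or unfolded proteins switch on other programmes. ATF4 raises amino acid transport and synthesis, NRF2 raises glutathione and NADPH production, and ATF6 and XBP1 raise the chaperones of the endoplasmic reticulum.

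With lenvatinib, 15 of 27 NRF2 targets and 11 of 29 genes of the ATF4 and amino acid response rose in both lines. Falls in both lines were called for 12 of 22 chaperones of the endoplasmic reticulum, 13 of 33 glycolytic and hypoxia genes, 6 of 20 YAP and TEAD targets and the keratins KRT8 and KRT18. Over all genes tested, 3.21% rose in both lines and 4.0% fell in both. The averaged contrast called 4639 genes (29.8% of those tested) by edgeR's quasi-likelihood test at a Benjamini-Hochberg adjusted p below 0.05, 2154 of them higher (13.8%) and 2485 lower (15.9%). Higher genes made up 46.4% of these calls. With library totals alone in place of TMM scaling they made up 59.0%, and on the deposited FPKM values (limma) 57.9%. Only 370 of the averaged calls were at least 2-fold, 146 higher and 224 lower. The average was often carried by 1 line: of the 4639 genes, 1125 were called the same way in both lines, 1687 were called in Huh7 alone, 1205 in PLC/PRF/5 alone, 556 in neither line and 66 in opposite directions.

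The 1125 shared genes are 7.22% of the genes tested, 501 higher in both lines (3.21%) and 624 lower in both (4.0%). With library totals alone the split was 734 higher and 426 lower, and with limma on log2(FPKM + 1) it was 755 higher and 445 lower. They make up 29.2% of the 3850 genes called in Huh7 (24.7% of those tested, 11.4% higher and 13.3% lower) and 35.9% of the 3133 called in PLC/PRF/5 (20.1%, 9.01% higher and 11.1% lower). A further 274 genes (1.76%) were called in both lines in opposite directions, so 80.4% of the 1399 genes called in both lines shared their direction. Large shared changes were few: 248 genes moved at least 1.5-fold in each line, 112 of them upwards, and 46 moved at least 2-fold in each, 19 upwards and 27 downwards. In 2329 genes (14.9%) the lenvatinib libraries lay on the same side of the DMSO libraries with no overlap in both lines, and 1106 of the shared genes were among them. Over all genes the changes in the lines had a Pearson correlation of 0.0862 and a Spearman correlation of 0.226, a description across 15587 genes that are not independent replicates.

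**Figure D1:**
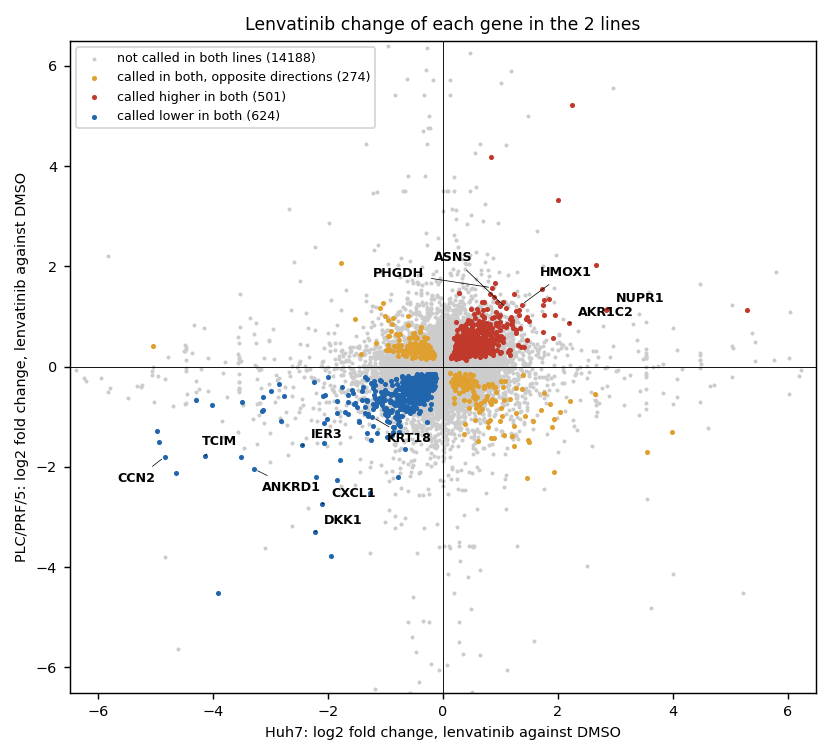
Log2 fold change of each of 15587 genes with lenvatinib in Huh7 (horizontal axis) and in PLC/PRF/5 (vertical axis), with 28 genes lying outside the plotted range. Red points are the 501 genes called higher in both lines, blue points the 624 called lower in both, orange points the 274 called in opposite directions and grey points all others, and many blue points lie farther out along the Huh7 axis than along the PLC/PRF/5 axis.

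Among the 1125 shared genes of the plot of both changes, the difference between the lines was itself called for 177 (15.7%), a share near the 14.4% of all genes tested. Of these 177, 134 changed more in Huh7 and 43 changed more in PLC/PRF/5. Library totals ran from 70236175 to 75820318 counts, so depth differed little between groups. The first principal component (83.9% of the variance) separated the lines and the second (5.07%) separated lenvatinib from DMSO in both. The third (2.76%) separated the treatments in opposite directions. Its scores in PLC/PRF/5 were -22.1 to -18.0 with DMSO and 18.4 to 23.0 with lenvatinib. In Huh7 they were 7.30 to 8.49 with DMSO and -9.25 to -7.66 with lenvatinib.

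Some library measures moved with the treatment. Transcripts of the mitochondrial genome took 5.57 to 5.69% of counts in DMSO-treated Huh7 and 6.33 to 6.88% with lenvatinib, and 10.3 to 10.6% and 11 to 11.3% in PLC/PRF/5. The mean rise of 0.785 percentage points had p = 0.005 in an exact two-sided permutation test within lines (3 libraries per group), the smallest value its 400 arrangements can give. This share is of raw totals. The TMM factors of PLC/PRF/5 were 0.973 to 0.979 with DMSO and 1.03 with lenvatinib. After TMM scaling, none of 13 mitochondrial transcripts was called higher in both lines. In Huh7 4 were called higher (11.4% of all genes were), and in PLC/PRF/5 5 were called lower (11.1%) and none higher. Of the hepatocyte markers, albumin was at 545 FPKM in Huh7 but at 1.81 in PLC/PRF/5 with DMSO, while keratin KRT8 was at 230.0 and 113 FPKM. APOB (32.9 in Huh7 and 281 in PLC/PRF/5) and SERPINA1 (7.75 and 83.5) stood the other way with DMSO. The rest of these markers were higher in Huh7. Of 8 leukocyte markers, the T cell gene CD3E and the pan-leukocyte gene PTPRC were at or near 0. The 8 summed to 3.90 to 4.32 FPKM in Huh7 with DMSO and 4.22 to 5.70 with lenvatinib. In PLC/PRF/5, where CD68 and LYZ made up most of it, the sum went from between 34.5 and 37.4 to between 39.9 and 44.5 FPKM. The 8 endothelial markers summed to at most 1.21 FPKM, with no ERG count in any library. Among 9 fibroblast and stellate cell markers the sum went from 40.7 to 41.2 FPKM down to 25.0 to 31.9 in Huh7, where nearly all of it was LUM, and stayed below 2 in PLC/PRF/5. What part these measures have in the gene results was not tested, and in bulk RNA fewer expressing cells cannot be told apart from less RNA per cell.

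STX6, the syntaxin of the trans-Golgi network named in the study's title, was not part of the shared response in the counts. Its CPM (counts scaled to library size with TMM factors) in Huh7 was 54.2, 46.7 and 50.7 with DMSO and 51.1, 53 and 44.4 with lenvatinib. PLC/PRF/5 libraries had 75.9, 18 and 78.6 with DMSO and 81.9, 84.9 and 28.9 with lenvatinib. The groups overlapped in both lines, with 1 low library in each PLC/PRF/5 group. The averaged log2 fold change was 0.076 ± 0.35 (edgeR adjusted p = 0.91), and an exact permutation test of log2 CPM within lines gave a difference of 0.13 with p = 0.595 (3 libraries per group). The averaged fold change was -0.14, -0.022 and -0.041 without PLC/PRF/5 replicate 2 with DMSO and without replicates 1 and 2 with lenvatinib. The deposited FPKM of the same libraries rose from a mean of 6.5 to 36.5 in Huh7 and from 9.41 to 42.2 in PLC/PRF/5. Limma on log2(FPKM + 1) therefore gave 2.19 (adjusted p = 3.77e-09), a rise that the counts of these libraries do not show.

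Of 29 tested genes of the ATF4 and amino acid response, 11 rose in both lines (37.9%, against 3.21% of all genes tested). In both lines 2 fell (6.9%, against 4.0% of all genes), and 2 were called in opposite directions (1.76% of all genes were). The median log2 fold change of the list was 0.56 in Huh7 and 0.45 in PLC/PRF/5, beside 0.0018 and -0.0075 over all genes. ATF4 itself rose by 0.57 ± 0.05 in Huh7 and 0.38 ± 0.05 in PLC/PRF/5, while its stress-induced partner DDIT3 was called in Huh7 (1.22 ± 0.19) but not in PLC/PRF/5 (0.16 ± 0.19), and TRIB3, an ATF4-induced pseudokinase, the other way round (0.012 ± 0.12 and 0.87 ± 0.12).

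ASNS, the enzyme that makes asparagine, changed by nearly the same factor in both lines. Its CPM in Huh7 was 149.6, 146 and 136 with DMSO and 301, 282 and 344 with lenvatinib. PLC/PRF/5 stood at 187, 198 and 184 with DMSO and at 485, 401 and 393 with lenvatinib. Every lenvatinib library stood above every DMSO library of its line, at log2 fold changes of 1.1 ± 0.09 and 1.17 ± 0.09 (edgeR adjusted p = 1.11e-05 and 2.65e-05), and the difference between the lines was 0.067 ± 0.13 (adjusted p = 0.802). NUPR1, a small stress-induced chromatin protein, had 16.5, 14 and 13.9 CPM in Huh7 with DMSO and 119.9, 109 and 90.01 with lenvatinib. The corresponding PLC/PRF/5 values were 11.2, 8.57 and 7.83 with DMSO and 22.6, 17.4 and 20.9 with lenvatinib. The groups were apart in both lines, but the rise of 2.85 ± 0.17 in Huh7 exceeded that of 1.14 ± 0.16 in PLC/PRF/5 by more than the error of the difference (-1.7 ± 0.22, PLC/PRF/5 minus Huh7, edgeR adjusted p = 0.000623).

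CEBPG, the bZIP partner of ATF4, rose by 0.46 ± 0.04 in Huh7 and 0.69 ± 0.04 in PLC/PRF/5. The transporters SLC7A11, which imports cystine, SLC7A5, which imports large neutral amino acids, and SLC1A4, which carries serine and alanine, rose in both lines. SLC7A11 changed by 1.27 ± 0.18 and 1.11 ± 0.17. SLC1A4 changed far less in Huh7 (0.27 ± 0.07) than in PLC/PRF/5 (1.46 ± 0.07), with a difference of 1.19 ± 0.10 (edgeR adjusted p = 3.21e-05). Of the other transporters on the list, SLC38A2, the glutamine and alanine carrier known for its rise in amino acid shortage, fell from 706 ± 5.1 to 239 ± 30.9 CPM in Huh7 and from 680.2 ± 41.8 to 473 ± 29.5 in PLC/PRF/5 (SD, n = 3). SLC43A1, a carrier of branched-chain amino acids that is on none of the lists, rose by 1.16 ± 0.05 and 0.95 ± 0.05, and ALDH4A1, which oxidises the proline breakdown product to glutamate, by 1.2 ± 0.17 and 0.84 ± 0.17.

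Of 12 genes on the list of serine synthesis and one-carbon enzymes, 5 rose in both lines (41.7%, against 3.21% of all genes). They were PHGDH, PSAT1, SHMT2, MTHFD2 and PCK2. Cytosolic MTHFD1 alone fell in both (8.33%, against 4.0% of all genes), and 6 were not called in both. PHGDH, the first enzyme of serine synthesis, was at 185, 233 and 199 CPM in Huh7 with DMSO and at 347, 395 and 373 with lenvatinib. With DMSO PLC/PRF/5 had 75.9, 66 and 60.1 CPM, and with lenvatinib 187, 199 and 215. The libraries did not overlap in either line, and PLC/PRF/5 with lenvatinib reached about the level that Huh7 had with DMSO. The rise was larger in PLC/PRF/5 (1.57 ± 0.11) than in Huh7 (0.85 ± 0.10), by 0.72 ± 0.15 (edgeR adjusted p = 0.00794), and PSAT1, the next enzyme, had the same order (0.71 ± 0.09 in Huh7 and 1.29 ± 0.09 in PLC/PRF/5, adjusted p of the difference = 0.013). PCK2, the mitochondrial PEP carboxykinase, changed by 0.97 ± 0.12 and 1.0 ± 0.12. The mitochondrial folate enzymes MTHFD2 (0.76 ± 0.19 and 0.67 ± 0.19) and SHMT2 (0.34 ± 0.08 and 0.44 ± 0.08) rose, and the cytosolic MTHFD1 changed by -0.3 ± 0.06 and -0.37 ± 0.06.

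Of 20 cytosolic aminoacyl-tRNA synthetases, the enzymes that load tRNAs for translation, 7 rose in both lines (35%, against 3.21% of all genes). Only 1 fell in both (5%, near the 4.0% of all genes). The 7 were AARS1, CARS1, EPRS1, GARS1, LARS1, SARS1 and YARS1, and the fall was that of VARS1, a count that changed under 15 other settings. AARS1, which loads alanine, was at 404, 418 and 406 CPM in Huh7 with DMSO and at 665, 660.1 and 677 with lenvatinib. In PLC/PRF/5 it was at 271, 282 and 277 with DMSO and at 429, 407 and 431 with lenvatinib. Replicates lay close together and the groups far apart, at 0.7 ± 0.04 and 0.61 ± 0.04. The other 6 rises were smaller, between 0.24 and 0.54 on the log2 scale, with EPRS1 at 0.24 ± 0.05 and 0.49 ± 0.05 and CARS1 at 0.3 ± 0.05 and 0.39 ± 0.05.

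TTGCATCA is a form of the element at which ATF4 and C/EBP proteins bind. Searched on both strands in the first 250 bases before the start, it was found in 3 of 25 genes of the ATF4 list with a RefSeq promoter, 1 of 8 serine and one-carbon genes and 2 of 16 synthetases. Counted in the same way, at any start of a gene, it was found in 0.967% of 27305 genes, and in 0.772% of 35116 RefSeq starts. Of these 6 genes, CEBPG and AARS1 rose in both lines and CHAC1, SLC1A5, MTHFD1L and IARS1 did not pass in both. The stretches of the shared genes are shown with the match in capitals, read 5′ to 3′ in the direction of the gene, at chr19:33374060-33374089 on the plus strand for CEBPG and chr16:70289675-70289704 on the minus strand for AARS1 (RefSeq, GRCh38.p14).
CEBPG: cgcgcggcgtcTGATGCAAcctgccggcaa
AARS1: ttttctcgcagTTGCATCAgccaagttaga
The motif was chosen with the gene results known, and a match is a description of the letters, not of a bound site.

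NRF2 targets had the largest share of shared rises among the lists. Of 27 tested, 15 rose in both lines (55.6%, against 3.21% of all genes) and none fell in both. A further 2 were called in opposite directions (1.76% of all genes were), and the list medians were 0.67 in Huh7 and 0.43 in PLC/PRF/5. HMOX1, the heme-degrading oxygenase, was at 7.25, 7.7 and 9.16 CPM in Huh7 with DMSO and at 21.3, 21.2 and 19.7 with lenvatinib. In PLC/PRF/5, where its level was higher throughout, it went from 74.1, 69.2 and 65.4 to 178, 155 and 159 CPM. The factor was about the same from both starting levels, 1.37 ± 0.10 in Huh7 and 1.24 ± 0.09 in PLC/PRF/5 (edgeR adjusted p = 3.56e-06 and 2.35e-05), with a difference of -0.13 ± 0.13 (adjusted p = 0.578).

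GCLM and GCLC, the subunits of the enzyme that starts glutathione synthesis, both rose. GCLM changed by 0.95 ± 0.10 in Huh7 and 1.01 ± 0.10 in PLC/PRF/5, and GCLC by 0.37 ± 0.12 and 0.55 ± 0.12. Of the enzymes that supply NADPH, PGD (0.66 ± 0.05 and 0.44 ± 0.05) and IDH1 (0.33 ± 0.10 and 0.37 ± 0.10) rose in both lines. The thioredoxin reductase TXNRD1 (0.95 ± 0.11 and 0.44 ± 0.11), the sulfiredoxin SRXN1 (0.58 ± 0.07 and 0.55 ± 0.07) and the quinone reductase NQO1 (0.35 ± 0.10 and 0.43 ± 0.10) were among the shared rises.

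The aldo-keto reductases AKR1C1 and AKR1C2, which reduce steroids and lipid aldehydes, rose more in Huh7. AKR1C2 was at 26.4, 29.98 and 27.9 CPM in Huh7 with DMSO and at 128, 137 and 120.1 with lenvatinib. PLC/PRF/5 stood at 23.6, 25.5 and 25.9 with DMSO and at 50.7, 36.7 and 49.6 with lenvatinib. From nearly equal levels under DMSO, the gain was 2.19 ± 0.12 in Huh7 and 0.87 ± 0.12 in PLC/PRF/5, a difference of -1.33 ± 0.16 (edgeR adjusted p = 0.00042). The pair are close paralogs whose reads the authors' counting may have split, so each value alone is uncertain.

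Ferritin separated the lines. The heavy chain FTH1 rose in both, by 0.83 ± 0.05 in Huh7 and 0.46 ± 0.05 in PLC/PRF/5, while the light chain FTL rose in Huh7 (0.84 ± 0.08) and fell in PLC/PRF/5 (-0.35 ± 0.08). The autophagy receptor SQSTM1, also an NRF2 target, was the other member called in opposite directions, at 1.39 ± 0.04 and -0.16 ± 0.04, a difference of -1.55 ± 0.06 (edgeR adjusted p = 1.68e-07). SLC7A11 stands on the ATF4 and the NRF2 list and is counted in both. GADD45A, a growth arrest gene induced by DNA damage and other stresses, rose by 1.2 ± 0.22 and 0.9 ± 0.22, with 1 low DMSO library in PLC/PRF/5 (13.1, 14.7 and 7 CPM). SMIM29, a small membrane protein at 3.75 to 25.2 CPM, rose by 0.94 ± 0.24 and 1.29 ± 0.24.

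**Figure D2:**
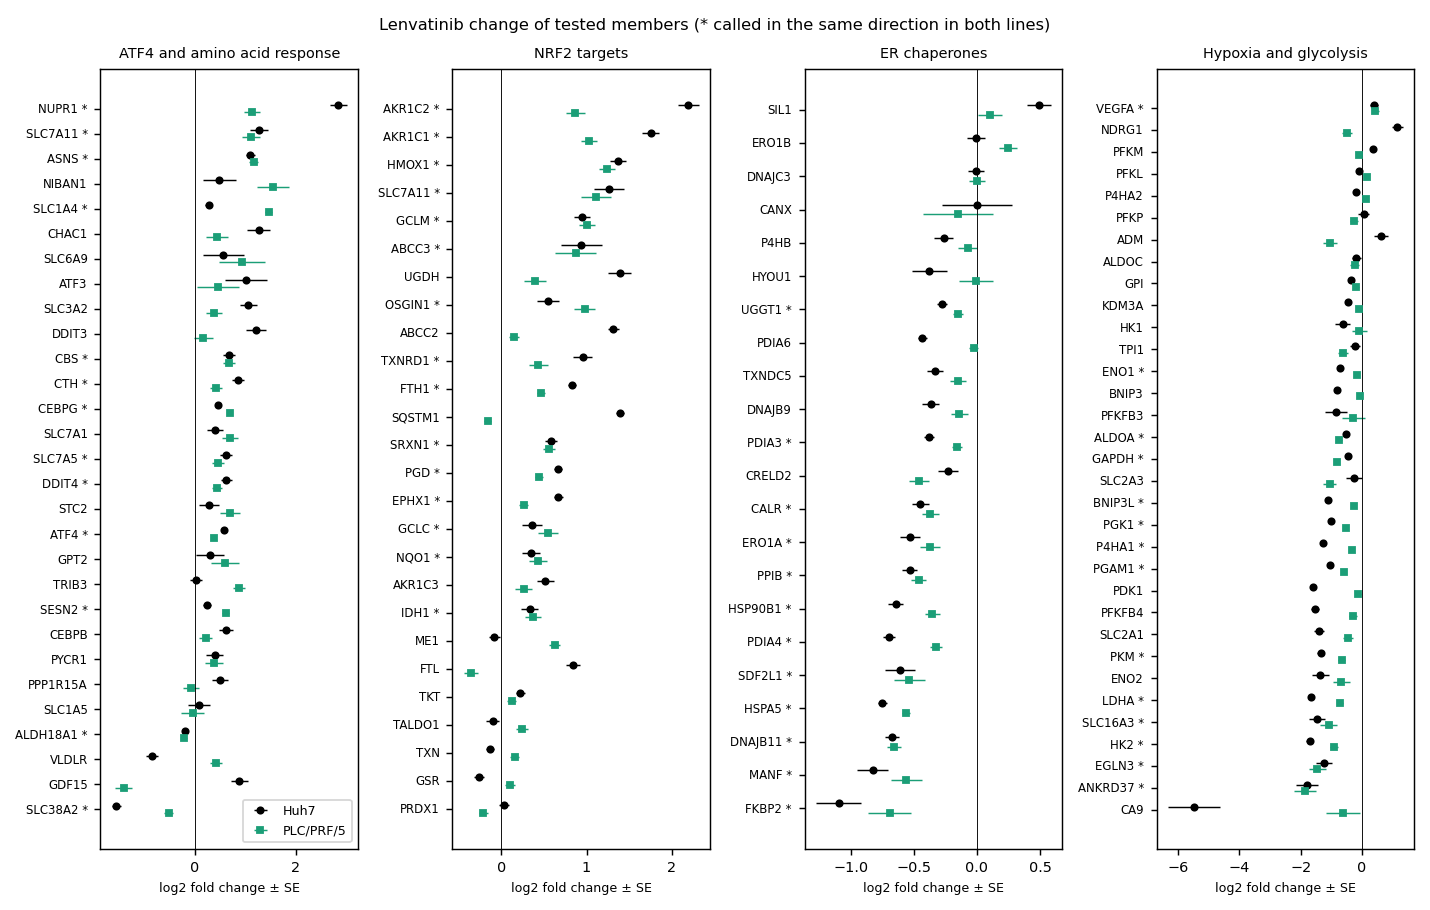
Log2 fold change with lenvatinib and its standard error for the tested members of 4 lists (1 NRF2 target is not shown), in Huh7 (black circles) and PLC/PRF/5 (green squares), with an asterisk on members called in the same direction in both lines. ASNS and HMOX1 have nearly equal values in both lines, the lower end of the ER chaperone panel lies left of 0 in both, and the Huh7 points of LDHA and PGK1 lie farther left than those of PLC/PRF/5.

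Chaperones of the endoplasmic reticulum (ER) had the largest share of shared falls among the lists. Of 22 tested, 12 fell in both lines (54.5%, against 4.0% of all genes) and none rose in both, with medians of -0.40 in Huh7 and -0.24 in PLC/PRF/5. HSPA5, the Hsp70 chaperone of the ER also called BiP, was at 1052, 1062 and 1053 CPM in Huh7 with DMSO and at 632, 630.1 and 624 with lenvatinib. The corresponding PLC/PRF/5 values were 2386, 2359.7 and 2305 with DMSO and 1544, 1645 and 1579 with lenvatinib. Replicates were tight and the groups far apart, at -0.75 ± 0.03 and -0.56 ± 0.03 (edgeR adjusted p = 1.17e-07 and 5.4e-06). The co-chaperone DNAJB11 changed by -0.67 ± 0.05 and -0.66 ± 0.05, values that differed by 0.016 ± 0.07 (edgeR adjusted p = 0.938).

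The shared falls took in several classes of folding factor. They were the Hsp90 of the ER HSP90B1, the lectin chaperone CALR, the disulfide isomerases PDIA3 and PDIA4, the oxidase ERO1A, the prolyl isomerases PPIB and FKBP2, the glycoprotein folding sensor UGGT1, the co-factors MANF and SDF2L1, and the pair above. PDIA4 changed by -0.7 ± 0.04 in Huh7 and -0.32 ± 0.04 in PLC/PRF/5, PPIB by -0.53 ± 0.06 and -0.46 ± 0.06, and FKBP2 by -1.1 ± 0.18 and -0.69 ± 0.17. CANX, the membrane lectin chaperone, had 0.0026 ± 0.28 and -0.15 ± 0.28 and SIL1, the exchange factor of HSPA5, 0.49 ± 0.10 and 0.1 ± 0.09, neither of which was a shared fall. Of 40 genes of the translocon, ER-associated degradation and vesicle transport, 33 were not called in both lines and none rose in both. The other 7 fell in both (17.5%, against 4.0% of all genes). Among these 7 were the translocon subunit SEC61G (-0.7 ± 0.05 and -0.22 ± 0.05), the segregase VCP (-0.25 ± 0.03 and -0.39 ± 0.03) and the retrieval receptor KDELR1 (-0.26 ± 0.06 and -0.48 ± 0.06). CREB3L2, a transcription factor of secretory genes, fell in Huh7 (-2.38 ± 0.05) and was not called in PLC/PRF/5 (-0.069 ± 0.04).

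The ER stress element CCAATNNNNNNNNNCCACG, the letters at which NF-Y and ATF6 are known to bind, was searched on both strands of the first 250 bases before the start. It was found in 7 of 21 ER chaperones with a RefSeq promoter, against 0.0916% of 27305 genes at any start and 0.0740% of 35116 starts. HSPA5, HSP90B1 and CALR of these 7 fell in both lines, while CANX, PDIA6, CRELD2 and ERO1B were not called in both. The stretches of these 3 shared genes are shown with the element in capitals, in the direction of the gene (RefSeq, GRCh38.p14). HSPA5 is at chr9:125241380-125241420 on the minus strand, CALR at chr19:12938373-12938413 on the plus strand, and 1 of the 2 matches of HSP90B1 at chr12:103930211-103930239 on the plus strand.
HSPA5: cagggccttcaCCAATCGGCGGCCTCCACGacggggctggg
CALR: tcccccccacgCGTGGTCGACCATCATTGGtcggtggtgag
HSP90B1: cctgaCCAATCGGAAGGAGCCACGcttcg
CALR holds the element on the other strand, so it reads in reverse there. This motif too was chosen with the gene results known, and nothing about factor binding was measured.

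Targets of YAP, a coactivator that responds to cell shape and density, and of its TEAD transcription factors held some of the largest shared falls. CCN2, a secreted matrix protein, was at 640.2, 668 and 644 CPM in Huh7 with DMSO and at 22.8, 19.4 and 25.5 with lenvatinib. With DMSO PLC/PRF/5 had 113, 104 and 103 CPM, and with lenvatinib 31.6, 27.4 and 32.9. Starting from a higher level, Huh7 ended below PLC/PRF/5. The changes of -4.85 ± 0.11 in Huh7 and -1.8 ± 0.10 in PLC/PRF/5 differed by 3.05 ± 0.14 (edgeR adjusted p = 5.19e-07). ANKRD1, an ankyrin repeat cofactor, went from 611, 668 and 636 to 68.4, 40.7 and 87.2 CPM in Huh7. The PLC/PRF/5 level went from 24.7, 20.6 and 23.4 to 5.45, 6.12 and 5.07 CPM. No lenvatinib library reached a DMSO library of its line, at -3.29 ± 0.23 and -2.04 ± 0.23.

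Of 20 tested YAP and TEAD targets, 6 fell in both lines (30%, against 4.0% of all genes). They were CCN2, ANKRD1, the kinase NUAK2, CRIM1, FSTL1 and the growth factor TGFB2. None rose in both and MYOF was called in opposite directions. The list medians were -0.25 in Huh7 and -0.22 in PLC/PRF/5. In Huh7 9 members were called lower (13.3% of all genes were) and 3 higher (11.4%). In PLC/PRF/5 7 were called lower (11.1%) and none higher. YAP1 itself was at -0.043 ± 0.27 and 0.15 ± 0.27. TGFB2 changed by -2.07 ± 0.14 and -1.52 ± 0.14, with a difference of 0.55 ± 0.19 (edgeR adjusted p = 0.0829). The TEAD core CATTCC, on either strand in the first 250 bases before the start, was found in 9 of 15 list genes with a RefSeq promoter against 14.3% of 27305 genes at any start and 11.9% of 35116 starts. CCN2, ANKRD1, NUAK2 and TGFB2 of the 9 fell in both lines, and AMOTL2, AJUBA, AXL, YAP1 and PTPN14 did not pass in both. The stretches below hold the 3 matches of CCN2, at chr6:131951451-131951552 on the minus strand, and 1 of the 2 matches of ANKRD1, at chr10:90921290-90921319 on the minus strand (RefSeq, GRCh38.p14), with the core in capitals.
CCN2: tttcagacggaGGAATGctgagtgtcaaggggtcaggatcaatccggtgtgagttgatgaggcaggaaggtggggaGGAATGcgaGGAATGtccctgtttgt
ANKRD1: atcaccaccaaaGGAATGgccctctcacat
A core of 6 letters is common, and the search was chosen with the gene results known.

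Output of the ERK cascade was shared in part. Of 20 tested genes, 6 fell in both lines (30%, against 4.0% of all genes) and none rose in both. In Huh7 14 fell (13.3% of all genes did) and in PLC/PRF/5 7 fell (11.1%). The count of 6 was 4 to 10 under other settings. DUSP4, a nuclear ERK phosphatase, was at 71.5, 71.5 and 70.6 CPM in Huh7 with DMSO and at 25.1, 22.8 and 29.2 with lenvatinib. In PLC/PRF/5 it was at 90.7, 90.2 and 93.7 with DMSO and at 39, 48.5 and 40.3 with lenvatinib. These changes, -1.47 ± 0.10 and -1.1 ± 0.10, differed by 0.37 ± 0.14 (edgeR adjusted p = 0.111). The immediate early gene IER3 changed by -2.45 ± 0.23 and -1.57 ± 0.22.

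For the cytosolic ERK phosphatase DUSP6 and the ephrin receptor EPHA2, both lines fell but Huh7 fell far more. DUSP6 went from 24.2 ± 1.83 to 0.765 ± 0.161 CPM in Huh7 and from 42.7 ± 2.99 to 17.4 ± 3.61 in PLC/PRF/5 (SD, n = 3), a difference of 3.69 ± 0.25 (edgeR adjusted p = 8.49e-06). EPHA2 changed by -3.5 ± 0.15 and -0.7 ± 0.13. The ETS factor ETV5 was carried by Huh7 alone, at -4.85 ± 0.14 against -0.25 ± 0.11 in PLC/PRF/5 (edgeR adjusted p = 0.157), so its averaged value of -2.55 ± 0.09 describes neither line. Cyclin D1 (CCND1) was called in both, at -2.0 ± 0.06 and -0.22 ± 0.06.

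Several of the other large shared falls were secreted signals or cytoskeletal genes. CXCL1, a chemokine that attracts neutrophils, was at 3.18, 4.24 and 2.9 CPM in Huh7 with DMSO and at 0.521, 0.892 and 0.975 with lenvatinib. PLC/PRF/5 stood at 223, 205 and 232 with DMSO and at 23.1, 41.8 and 34 with lenvatinib. The level differed widely between the lines and the fall did not pass a test of difference, -2.11 ± 0.28 and -2.74 ± 0.24 with -0.63 ± 0.36 between them (edgeR adjusted p = 0.292). It was the single shared fall among 23 NF-kB and chemokine genes, 4.35% of the list and near the 4.0% of all genes. DKK1, a secreted inhibitor of Wnt signalling, went from 41.7, 47.6 and 46.6 to 9.58, 6.72 and 12.6 CPM in Huh7 (-2.23 ± 0.62), and in PLC/PRF/5 it had 99, 38 and 52 counts with DMSO and 20, 0 and 0 with lenvatinib, too few for a fold. AREG, a ligand of the EGF receptor, fell from 300.4, 281 and 278 to 100.2, 114 and 111 CPM in PLC/PRF/5 (-1.4 ± 0.27). It fell from 8.87, 8.58 and 9.58 to 5.95, 2.16 and 5.57 in Huh7 (-0.98 ± 0.28), where 1 lenvatinib library was low.

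The keratins KRT8 and KRT18, partners in the intermediate filaments of liver cells, fell in both lines. KRT18 was at 851, 878 and 868 CPM in Huh7 with DMSO and at 371, 355 and 381 with lenvatinib. The corresponding PLC/PRF/5 values were 641, 563 and 614 with DMSO and 305, 311 and 289 with lenvatinib. Neither line overlapped, at -1.23 ± 0.05 and -1.01 ± 0.05, with a difference of 0.22 ± 0.07 (edgeR adjusted p = 0.0655), and KRT8 changed by -0.97 ± 0.17 and -0.96 ± 0.17. Exons of the pair overlap in GENCODE 29 and both have many pseudogene copies, so reads between them may have been shared.

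ID1, an inhibitor of helix-loop-helix factors and a target of BMP signalling, fell from 576 ± 5.06 to 183 ± 5.84 CPM in Huh7 and from 167 ± 20.5 to 87.3 ± 3.11 in PLC/PRF/5 (SD, n = 3), a larger fall in Huh7 by 0.72 ± 0.11 (edgeR adjusted p = 0.00124). TCIM, known as a regulator of Wnt signalling, changed by -4.14 ± 0.17 and -1.78 ± 0.15. CYP26B1, which breaks down retinoic acid, changed by -2.83 ± 0.15 and -1.08 ± 0.15. Among 24 tested genes of the extracellular matrix and mesenchymal state, 6 fell in both lines (25%, against 4.0% of all genes). In both lines 2 rose (8.33%, against 3.21% of all genes), a count of 1 or 2 with 1 library left out. Fibronectin FN1 changed by -0.61 ± 0.04 in Huh7 and -0.66 ± 0.04 in PLC/PRF/5, with a difference of -0.046 ± 0.06 (edgeR adjusted p = 0.691), and COL6A1 and TGFBI were the rises. LUM, whose fall in Huh7 (-0.61 ± 0.16) set the sum of the fibroblast markers, stood below 1 CPM in PLC/PRF/5 (-0.81 ± 0.22).

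**Figure D3:**
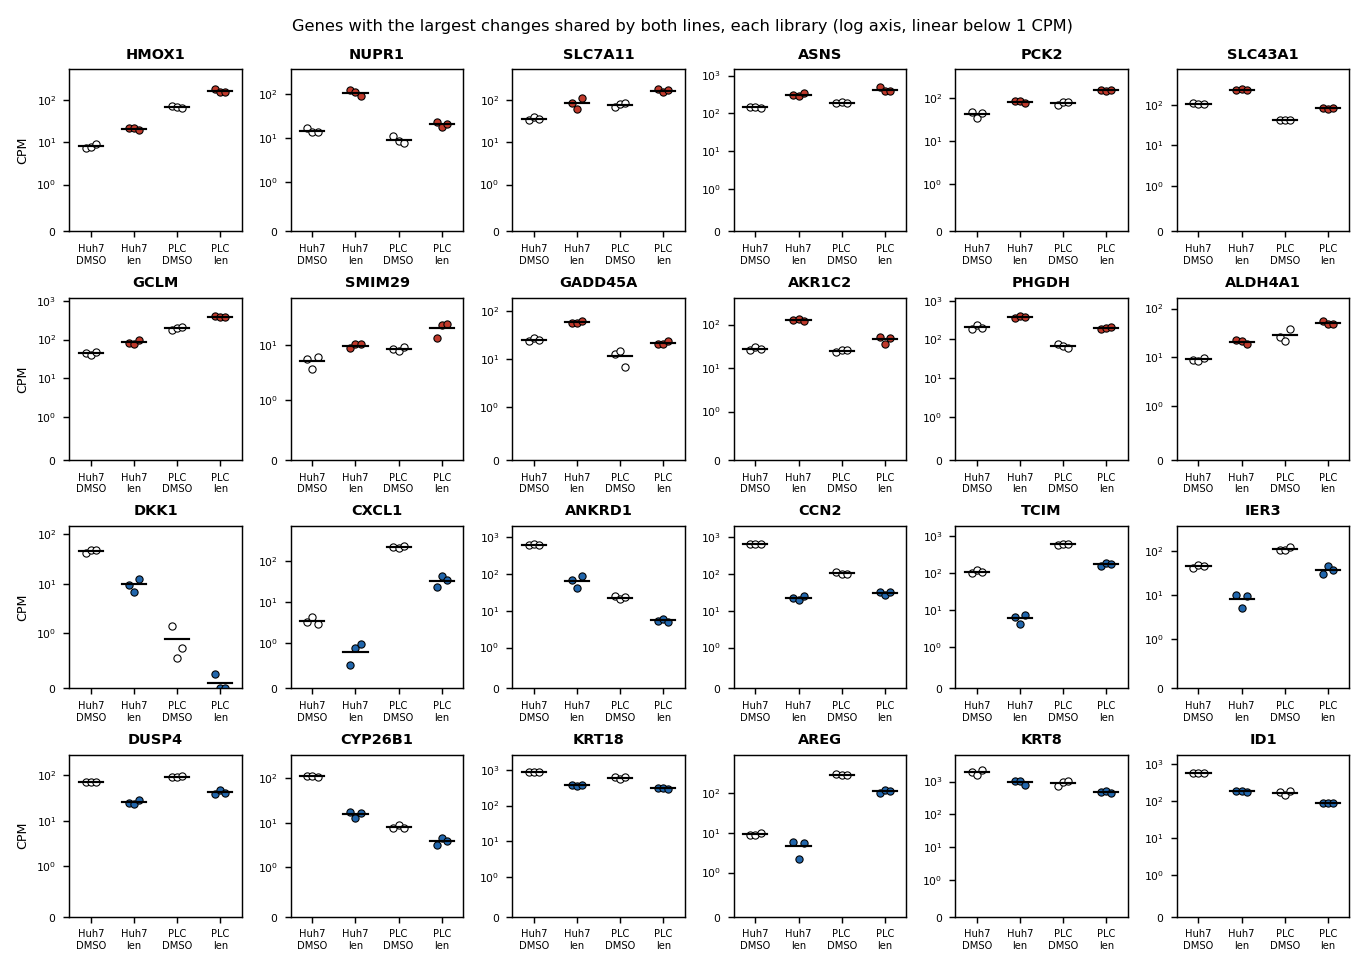
CPM of the 12 genes with the largest rises and the 12 with the largest falls shared by both lines, 1 point per library and a bar at the mean of 3, on an axis that is logarithmic above 1 CPM and linear below. Open points are DMSO and filled points lenvatinib (red for rises, blue for falls), and in each panel the points of lenvatinib and DMSO do not overlap within a line.

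The plot by library shows genes with unequal starting levels and like changes (HMOX1, CXCL1) beside genes whose Huh7 change is the larger (CCN2, TCIM, CYP26B1). It holds only genes chosen for a large change in the line where it was smaller and for no overlap between groups, so the gap between its points is a property of the choice.

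Of 33 tested glycolytic and hypoxia-responsive genes, 1 rose in both lines (3.03%, near the 3.21% of all genes). Falls in both were called for 13 (39.4%, against 4.0% of all genes). The glycolytic members were hexokinase HK2, aldolase ALDOA, GAPDH, phosphoglycerate kinase PGK1, the mutase PGAM1, enolase ENO1 and pyruvate kinase PKM. LDHA, which turns pyruvate to lactate, was at 2494, 2354 and 2884 CPM in Huh7 with DMSO and at 792, 873 and 791 with lenvatinib. With DMSO PLC/PRF/5 had 777, 623 and 676 CPM, and with lenvatinib 437, 417 and 421. Levels fell in both without overlap, at -1.65 ± 0.09 and -0.7 ± 0.09, more in Huh7 by 0.95 ± 0.13 (edgeR adjusted p = 0.000648). PGK1 (-1.01 ± 0.05 and -0.53 ± 0.05) and PGAM1 (-1.04 ± 0.06 and -0.57 ± 0.06) had the same order, as did the collagen prolyl hydroxylase P4HA1 (-1.26 ± 0.06 and -0.33 ± 0.06). ALDOA (-0.52 ± 0.09 and -0.74 ± 0.09) and GAPDH (-0.46 ± 0.05 and -0.82 ± 0.05) had the larger fall in PLC/PRF/5, a difference that was called for GAPDH (-0.36 ± 0.07, edgeR adjusted p = 0.00916) and not for ALDOA (adjusted p = 0.305).

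Of the hypoxia genes outside glycolysis, the prolyl hydroxylase EGLN3 (-1.25 ± 0.26 and -1.46 ± 0.28) and ANKRD37 (-1.79 ± 0.36 and -1.85 ± 0.35) fell in both, with differences of -0.21 ± 0.38 and -0.06 ± 0.51 that were not called (edgeR adjusted p = 0.792 and 0.972). The shared rise was that of VEGFA, the ligand of the receptors that lenvatinib blocks, at 0.39 ± 0.12 and 0.43 ± 0.12, a call lost under 12 other settings. ANGPTL4, a secreted lipase inhibitor on the fatty acid list, changed by -1.31 ± 0.17 and -0.99 ± 0.17.

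Cell cycle genes entered the averaged contrast through Huh7. Of 33 genes of DNA replication and the G1/S transition, 27 were lower in the average (15.9% of all genes were), 31 in Huh7 (13.3% of all genes) and 2 in PLC/PRF/5 (11.1% of all genes). ORC1 and FEN1 alone fell in both (6.06%, against 4.0% of all genes), a count of 0 to 2 under other settings. The median was -1.16 in Huh7 and 0.015 in PLC/PRF/5, and the difference between the lines was called for 29 of the 33 (14.4% of all genes). Of 30 G2/M and mitosis genes, 23 were lower in the average and 27 in Huh7. In PLC/PRF/5 5 were called lower and 5 higher (9.01% of all genes were higher). Shared falls numbered 5 (16.7%, against 4.0% of all genes), a count of 2 to 6 under other settings. Opposite directions were called for 4 (1.76% of all genes), TOP2A, CCNB2, KIF11 and DLGAP5. The mitotic kinesin KIF20A was an exception with the same fall in both, -0.54 ± 0.07 and -0.54 ± 0.07. The proliferation marker MKI67 fell more in Huh7 (-0.82 ± 0.06) than in PLC/PRF/5 (-0.24 ± 0.06), and the spindle factor TPX2 changed in Huh7 alone (-0.68 ± 0.04, against -0.0037 ± 0.04).

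**Figure D4:**
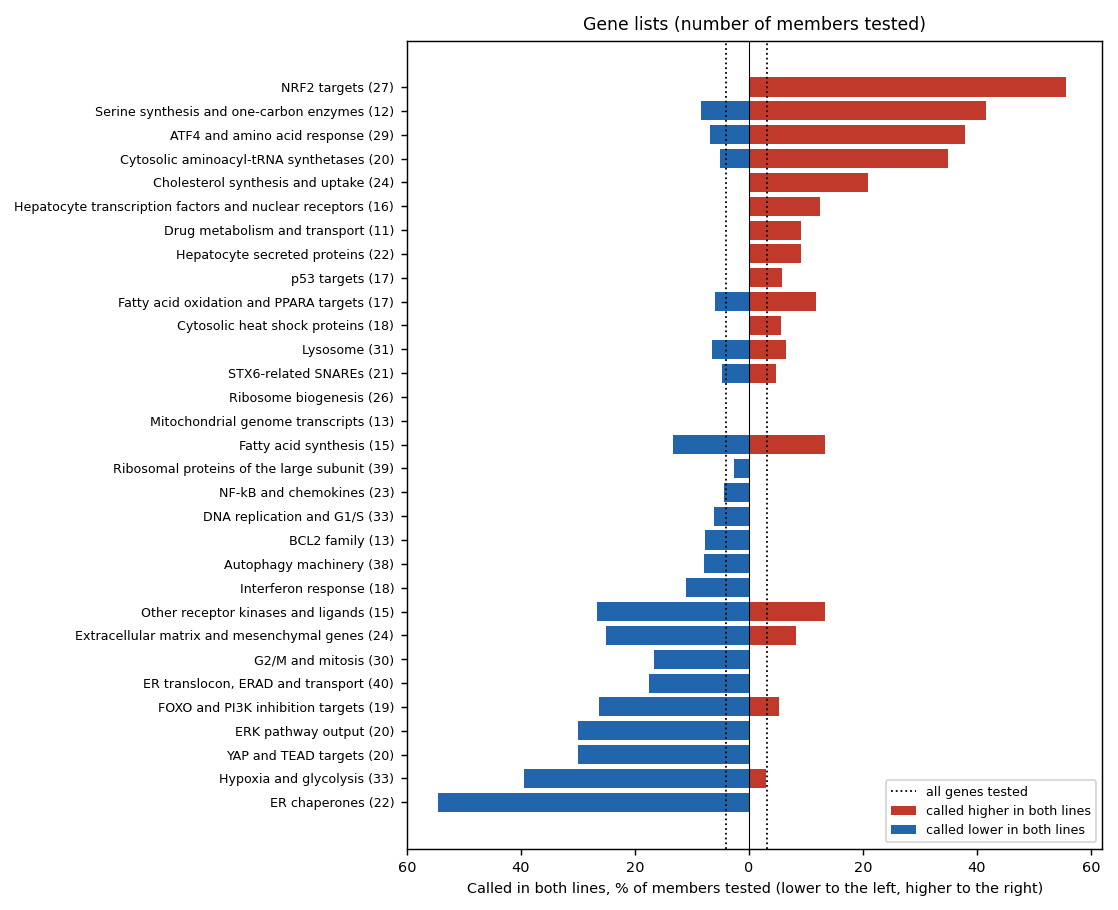
Share of the tested members of each list called in the same direction in both lines, higher to the right (red) and lower to the left (blue), with the number tested in brackets. Dotted lines mark the shares over all genes tested, 3.21% higher and 4.0% lower. NRF2 targets reach 55.6% higher and ER chaperones 54.5% lower, while ribosome biogenesis and mitochondrial transcripts have no shared member.

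Hepatocyte genes split. Of 22 secreted liver proteins, 2 rose in both lines (9.09%, against 3.21% of all genes). A further 4 were called in opposite directions (1.76% of all genes were), the fibrinogen chains FGA, FGB and FGG and the apolipoprotein APOB. FGA was at 435, 409.8 and 420.2 CPM in Huh7 with DMSO and at 1173, 1261 and 1071 with lenvatinib. In PLC/PRF/5 it was at 4002, 3715 and 3659 with DMSO and at 1379.9, 1349 and 1370.1 with lenvatinib, so the lines ended closer together than they began. The changes of 1.47 ± 0.06 and -1.47 ± 0.06 cancelled in the average, and the difference was -2.94 ± 0.08 (edgeR adjusted p = 9.27e-09). FGB and FGG behaved alike, with differences of -3.11 ± 0.10 and -2.96 ± 0.06. The shared rises were albumin (0.65 ± 0.12 and 0.52 ± 0.13) and APOE (0.78 ± 0.05 and 0.29 ± 0.05). Of 16 hepatocyte transcription factors and nuclear receptors, CEBPA (0.99 ± 0.12 and 0.74 ± 0.12) and RXRA (0.53 ± 0.09 and 0.44 ± 0.10) rose in both (12.5%, against 3.21% of all genes).

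Interferon genes also went apart. Of 18 tested, 5 were called in opposite directions (1.76% of all genes were), higher in Huh7 and lower in PLC/PRF/5. A further 2 fell in both (11.1%, against 4.0% of all genes). The RNA sensor IFIH1 changed by 2.65 ± 0.17 in Huh7 and -0.55 ± 0.16 in PLC/PRF/5. USP18, a brake on interferon signalling, was among those that fell in both (-1.66 ± 0.13 and -0.56 ± 0.13). CXCL2, a close relative of CXCL1, was at 0.356 to 1.90 CPM in Huh7, where it rose (1.47 ± 0.38), and fell in PLC/PRF/5 from 53.1, 48.5 and 52.5 to 5.94, 16.1 and 10.9 CPM (-2.22 ± 0.35). MICAL2, an actin oxidoreductase, fell in Huh7 from 944, 932 and 506 to 118, 262 and 313 CPM (-1.78 ± 0.37) and rose in PLC/PRF/5 from 3.98, 5.11 and 3.84 to 19.97, 22.2 and 11.8 (2.06 ± 0.40). In Huh7 1 MICAL2 library of each group stood apart, and in PLC/PRF/5 1 lenvatinib library did. A transcript listed as AC107385, below 2 CPM throughout and with 1 DMSO library in Huh7 near 0, was the other large opposite change.

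Of 24 genes of cholesterol synthesis and uptake, 15 were not called in the average and none fell in both lines. Rises in both were called for 5 (20.8%, against 3.21% of all genes). They were the transcription factor SREBF2 and the enzymes HMGCS1, MVD, CYP51A1 and MSMO1. HMGCS1 changed by 0.63 ± 0.04 and 0.3 ± 0.04, SREBF2 by 0.44 ± 0.05 and 0.26 ± 0.05 and CYP51A1 by 0.38 ± 0.04 and 0.27 ± 0.04. SREBF1, the related factor of fatty acid synthesis, changed the other way, -0.45 ± 0.07 and -0.4 ± 0.07, with the desaturase FADS1 (-0.35 ± 0.04 and -0.32 ± 0.04), while the acetyl-CoA synthetase ACSS2 rose (0.71 ± 0.07 and 0.47 ± 0.07). CPT1A, which gates fatty acid entry into mitochondria, rose by 0.79 ± 0.05 and 0.35 ± 0.05.

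Autophagy is the process that the study's title links to STX6. Of 38 autophagy genes, 3 fell in both lines (7.89%, against 4.0% of all genes) and none rose in both. They were VMP1 (-1.09 ± 0.10 and -0.6 ± 0.10) and ATG9A (-0.39 ± 0.06 and -0.26 ± 0.06), membrane proteins of autophagosome formation, and WIPI1 (-0.33 ± 0.09 and -0.41 ± 0.09). ATG13 of the initiation complex fell in PLC/PRF/5 (-0.83 ± 0.08) and was not called in Huh7 (-0.19 ± 0.08). Among 31 lysosomal genes, 2 rose in both (6.45%), 2 fell in both (6.45%) and 4 were called in opposite directions. Over all genes the shares were 3.21%, 4.0% and 1.76%. With 1 library left out each count of 2 was 1 or 2. The glucosidase GAA (0.82 ± 0.09 and 0.82 ± 0.09) and the galactosidase GLA (-0.52 ± 0.07 and -0.51 ± 0.07) each changed by the same factor in both lines, the former up and the latter down. Of 21 SNARE genes related to STX6, VAMP4 rose in both (0.53 ± 0.15 and 0.84 ± 0.15) and VAMP8 fell in both (-0.37 ± 0.07 and -0.48 ± 0.07). Each is 4.76% of the list, near the 3.21% of all genes higher and 4.0% lower in both. The count of rises in this list was 0 to 2 with 1 library left out, and that of falls 1 to 2.

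Of 10 receptors that lenvatinib blocks, 4 were expressed enough to be tested, and none was called in both lines. FGFR4 had -0.36 ± 0.13 in Huh7 and -0.035 ± 0.13 in PLC/PRF/5, FGFR3 0.17 ± 0.25 and 0.56 ± 0.25, and FGFR1 -0.28 ± 0.15 and 0.26 ± 0.15. PDGFRA fell in Huh7 from 26, 26.7 and 28.2 to 3.66, 2.62 and 2.27 CPM and was below 1 CPM in PLC/PRF/5. Its averaged call (edgeR adjusted p = 0.0415) rests on that line, and leaving out any single Huh7 library took its adjusted p to between 0.0601 and 0.0754. Among other receptors, EGFR rose in both (0.54 ± 0.05 and 0.26 ± 0.05) and MET (-0.38 ± 0.07 and -0.47 ± 0.07) and IGF1R (-0.45 ± 0.05 and -0.25 ± 0.05) fell in both.

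BCL2L1, which encodes the survival protein BCL-XL, fell from 375, 431 and 299 to 103, 90.2 and 115 CPM in Huh7. The fall in PLC/PRF/5 was from 269, 231 and 248 to 148, 148 and 169 CPM. It was the single shared change among 13 BCL2 family genes (7.69%, against 4.0% of all genes lower in both), at -1.84 ± 0.13 and -0.68 ± 0.13. Of 19 FOXO and PI3K inhibition targets, 5 fell in both lines (26.3%, against 4.0% of all genes). FOXO3 alone rose in both (5.26%, against 3.21%). TXNIP, an inhibitor of glucose uptake, changed by -1.59 ± 0.07 and -0.47 ± 0.06, and the coactivator CITED2 by -0.95 ± 0.08 and -0.89 ± 0.08. The mitochondrial chaperone HSPD1 was the 1 shared rise of 18 cytosolic and mitochondrial heat shock genes (0.2 ± 0.07 and 0.3 ± 0.07), a count of 0 to 5 under other settings. It is 5.56% of that list, against 3.21% of all genes higher in both. Of 95 genes followed, 94 were matched in GENCODE 29 and exons of 34 overlap another gene, ASNS, SLC7A11, CCN2, DKK1, IER3, DUSP6, FTH1, PGK1, P4HA1, CEBPA, BCL2L1, EGFR and HSPD1 among them, and the strand setting of the counts is not given in the sources used here.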

How the data were processed

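RNA-seq of 12 libraries was analysed from 1 table in which the authors deposited a read count and an FPKM value per gene and library, per the file headers. Reads were aligned with HISAT2 to hg19, per the submitters' processing notes, and which counter, annotation and strand setting were used is not stated in them. 12 other columns were not used. The table has 40825 lines with 35612 symbols, and 567 tested lines share a symbol.

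The 15587 genes whose mean FPKM reached 0.5 were fitted with edgeR 4.0.16 in R 4.3.3 (TMM, robust quasi-likelihood, 1 mean per group), with p-values adjusted by Benjamini-Hochberg over all of them at 0.05. Changes are log2 fold changes ± standard error. Limma 3.58.1 (log2(FPKM + 1) or + 0.1) and DESeq2 1.42.0 were alternatives, with other filters, scalings, a replicate block and each library left out. FPKM keep no read depth, and the fold on that scale understates the change of low genes. Pandas 2.3.3 and matplotlib 3.10.9 under Python 3.11.15 were used for annotation and plots. The code was tested on simulated counts.

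Genes were named by rule: up to 12 each way with the largest change in the line where it was smaller (called in both lines, no overlap, mean FPKM of at least 5), up to 4 per list with the smallest adjusted p (mean FPKM of at least 1), STX6 and the receptors, and the 4 largest opposite changes. Other list members, and the genes of the motif searches, were named after their values were seen. The members, lists and motifs were chosen with earlier results of these data known. Some genes are not reported here.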

Additional observations from a re-analysis of the deposited data

Results flagged for a closer look

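Of 95 genes followed, 46 had a change with lenvatinib that differed between the lines in the test of the difference itself (edgeR's quasi-likelihood test, Benjamini-Hochberg adjusted p below 0.05 over all genes tested), a test that 14.4% of all genes passed. Most of the 95 were chosen for the size or the p-value of their change, so their count cannot be read against that share. Each value in brackets is the change in PLC/PRF/5 minus the change in Huh7 on the log2 scale. Of the 46, 34 were called in the same direction in both lines, 29 of them more in Huh7 and 5 more in PLC/PRF/5.

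Among genes called higher in both lines, the rise was larger in Huh7 for NUPR1 (-1.7), AKR1C2 (-1.33), AKR1C1 (-0.72), FTH1 (-0.37), APOE (-0.49), HMGCS1 (-0.32), CPT1A (-0.44) and EGFR (-0.28). It was larger in PLC/PRF/5 for PHGDH (0.72), CEBPG (0.23), SLC1A4 (1.19), PSAT1 (0.58) and EPRS1 (0.25).

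Genes called lower in both lines fell more in Huh7 in the case of ANKRD1 (1.24), CCN2 (3.05), TCIM (2.36), CYP26B1 (1.75), ID1 (0.72), DUSP6 (3.69), EPHA2 (2.8), ORC1 (0.79), MKI67 (0.58), SLC38A2 (1.04), HSPA5 (0.18), PDIA4 (0.37), SEC61G (0.48), PGK1 (0.49), P4HA1 (0.93), PGAM1 (0.46), LDHA (0.95), VMP1 (0.49), USP18 (1.1), TXNIP (1.11) and BCL2L1 (1.16).

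Genes called in opposite directions were AC107385 (-4.04), MICAL2 (3.84), FGA (-2.94), CXCL2 (-3.69), SQSTM1 (-1.55), FGG (-2.96), FGB (-3.11) and IFIH1 (-3.2). The difference was also called for ETV5 (4.6), TPX2 (0.68), CREB3L2 (2.31) and ATG13 (-0.64), which were called in 1 line.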

How the results depend on the processing

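The averaged contrast under 25 other settings, and the difference between the lines under 23, kept a count within 1.5 times the value reported, from 3318 (additive model of line and treatment) to 5329 (DESeq2) for the average and from 1647 (replicate block) to 3071 (DESeq2) for the difference. The shared response ran from 814 without a filter to 1435 with DESeq2, and stricter rules gave 248 genes (at least 1.5-fold in each line) and 610 (the larger of both p-values adjusted). Leaving out 1 library gave 4043 to 4469 averaged, 854 to 1075 shared and 1782 to 2307 differing genes. The replicate numbers did not pair the samples (correlations of same-numbered deviations of -0.0119 to 0.0195), and with a replicate block within line there were 4055 averaged and 820 shared calls, 767 of the latter in common. Higher genes made up 59.0% of averaged calls with library totals alone and 57.9% with limma on FPKM, against 46.4%.

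STX6 became 2.19 and 2.32 with limma on log2(FPKM + 1) and log2(FPKM + 0.1), and 2.19 in the permutation on FPKM. Without 1 library it ran from -0.14 to 0.25, and from -0.21 to 0.38 in the permutation. FGFR1, not called, became 0.043 with library totals, 0.00094 without a filter, and 0.062 and 0.041 with limma on FPKM. It ran from -0.0905 to 0.0686 without 1 library. The causes were not tested. Of 2365 pairs of a gene and a setting, 2324 kept direction and side of the threshold, 25 lost the call, 4 gained one and 12 changed sign. With 3 libraries per group, a shared call needs a change larger than the spread in each line, and counts near 0, as for DKK1 and PDGFRA in PLC/PRF/5, give no usable fold.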

Other observations

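Host genes of small nucleolar RNAs, several of which are known to build up when translation slows, stood out after the values were seen. Of 22 tested, named SNHG with a number, GAS5 or ZFAS1, 4 were called higher in both lines (18.2%, against 3.21% of all genes) and none lower in both. GAS5, which carries many of these RNAs in its introns, changed by 1.05 ± 0.11 in Huh7 and 0.81 ± 0.11 in PLC/PRF/5. The others were SNHG32 (0.76 ± 0.09 and 0.69 ± 0.09), SNHG29 (0.64 ± 0.10 and 0.5 ± 0.10) and ZFAS1 (0.52 ± 0.13 and 0.53 ± 0.13). The list medians were 0.32 in Huh7 and 0.12 in PLC/PRF/5, and the list was written with these values known.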
